A study of Oryza sativa with 2 samples.

Results

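The Aux/IAA, GH3 and SAUR genes are the classical early auxin response genes, and 10 of them were followed in young rice panicles among the 57446 genes of the deposited table. The members were taken by locus identifier and comprise 6 Aux/IAA genes, 3 GH3 genes and 1 SAUR gene. They were chosen with earlier results of these data known. The Aux/IAA genes are IAA1 (LOC_Os01g08320), IAA6 (LOC_Os01g53880), IAA9 (LOC_Os02g56120), IAA14 (LOC_Os03g58350), IAA20 (LOC_Os06g07040) and IAA24 (LOC_Os07g08460). The GH3 genes are GH3-1 (LOC_Os01g57610), GH3-2 (LOC_Os01g55940) and GH3-8 (LOC_Os07g40290), and the SAUR gene is SAUR39 (LOC_Os09g37330). Messenger RNA was measured in panicles shorter than 2 cm of the lf2 mutant, named for LATERAL FLORET 2, a gene of the SNF2 class of chromatin remodellers, and of the line XD1B, given as the wild type. There was 1 library of lf2 and 1 library of XD1B, so every difference is one between 2 libraries without replicates, and p-values are not given. The sources used here do not name the lf2 lesion, the LF2 locus, the number of panicles per library or the growth conditions, so the level of the mutated gene was not checked.

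Auxin acts by removing repressors. In its absence Aux/IAA proteins hold the auxin response factors (ARFs) inactive on their target genes, and auxin brings the Aux/IAA proteins together with receptors of the TIR1/AFB type, which mark them for destruction. The released ARFs then switch on target genes within minutes, among them many Aux/IAA genes, which restore repression, GH3 genes, whose enzymes join auxin or jasmonate to amino acids, and SAUR genes, whose short-lived products act on cell growth. In the panicle, auxin takes part in the outgrowth of branch, spikelet and floral organ primordia.

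Levels are given in FPKM, fragments scaled to gene length and to the library total. This scaling allows for gene length and library depth but not for a different composition of the 2 libraries. Among well expressed genes the median ratio of lf2 to XD1B was 0.76. Counts of the members and of the larger auxin lists are therefore also given with lf2 rescaled to a median ratio of 1. The libraries held 27373727 fragments for lf2 and 29111345 for XD1B. In lf2 21112 genes stood at FPKM 1 or above, and in XD1B 20010. The difference used throughout is log2((lf2 FPKM + 1)/(XD1B FPKM + 1)), which makes the differences of low genes look smaller. A gene was counted as higher or lower where it differed at least 2-fold on this scale, which is a threshold on size alone. Ratios are of FPKM without the added 1, with exact 95% intervals that cover counting error only. As panicle markers, OSH1, MADS1, MADS6, MADS7, MADS14, MADS15, DL and LOG were all present, at 11.4 to 149 FPKM in lf2 and 6.70 to 225 in XD1B. Their levels were not alike in the 2 libraries. By the 2-fold rule 0 of these 8 were higher in lf2 and 4 (MADS1, MADS6, MADS7 and DL) were lower. Counts of marker lists were made at the deposited scale only, and the number lower could differ after rescaling. Among all genes at FPKM 1 or above in one library or both, 15.3% were higher and 8.23% lower. The median log2 difference of the 8 markers was -0.98. None of the 4 anther markers reached FPKM 1 in either library. Of 4 root markers, 2 stood at 0 in both libraries, while PT8 was at 23.7 FPKM in lf2 and 0.495 in XD1B and LSI1 at 3.04 in lf2 and 0.204 in XD1B. The summed level of 5 leaf markers was 59.5 FPKM in lf2 and 106 in XD1B. A list of 12 stress and jasmonate genes, chosen with earlier results of these data known, was higher in lf2 throughout, at 22.8 to 5129 FPKM in lf2 and 0 to 48.3 in XD1B.

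The 10 members split into genes that were higher in the lf2 library and genes within the 2-fold limits. By the 2-fold rule, 5 of the 10 members were higher in lf2 (GH3-2, IAA6, GH3-8, SAUR39 and IAA9) and 0 were lower. Among the 22150 genes that reached FPKM 1 in one library or both, the rule was passed by 15.3% as higher and by 8.23% as lower. The median log2 difference of the members was 1.22, beside -0.31 over all those genes. Because the members were chosen with earlier results of these data known, their count and median describe the chosen genes only. They are no test against all genes. All 10 members passed the filter, but IAA9, GH3-2 and SAUR39 passed by their lf2 level alone. Of the 7 members at FPKM 1 or above in both libraries, only IAA6 and GH3-8 were higher by the rule. The share of all genes under that stricter filter was not computed, so this count has no background beside it. The 5 members not counted as higher lay between the 2-fold limits, and IAA14 was the only member with a lower level in lf2 than in XD1B. When lf2 was rescaled so that the median ratio of well expressed genes was 1, 6 members were higher by the rule and 0 lower, beside 4410 genes (19.6%) higher and 389 (1.73%) lower among 22496 genes that then reached FPKM 1. With a pseudocount of 5, 3 of the 10 members were higher, beside 9.86% of all genes, and among genes that reached FPKM 5 in one library or both, 3 of 6 members were, beside 15.2%. In these whole-panicle libraries, a different share of cells that express a gene and a different amount of its RNA per cell cannot be told apart.

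**Figure D1:**
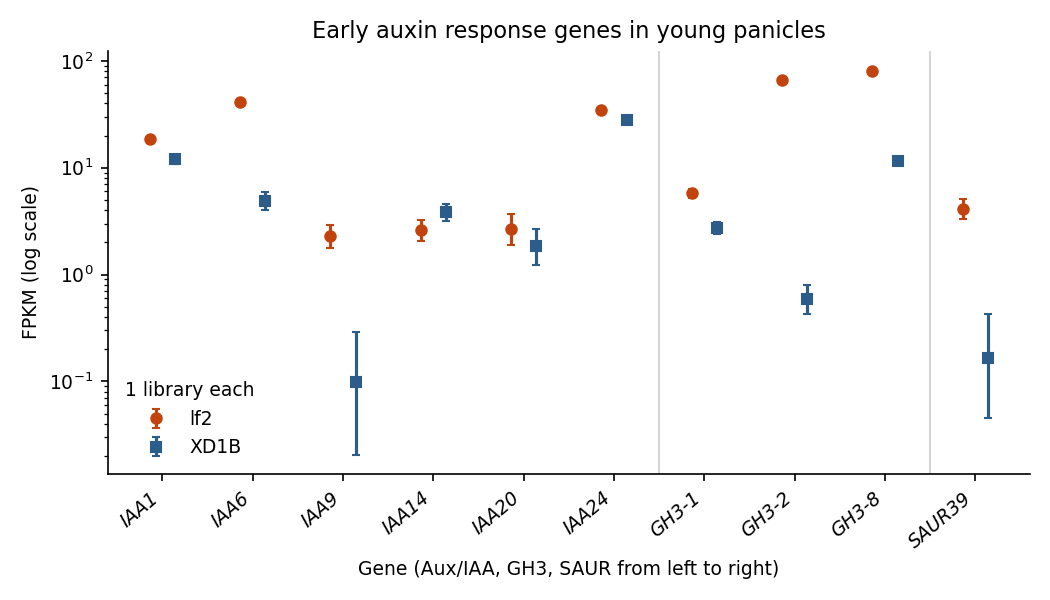
FPKM (log scale) of the 10 early auxin response genes in the lf2 library (circles) and the XD1B library (squares), 1 library each; bars are exact 95% counting intervals. GH3-2 stands at 66.3 FPKM in lf2 and 0.594 in XD1B, IAA6 at 41.2 in lf2 and 4.91 in XD1B, and IAA14 is the only gene whose lf2 point lies below its XD1B point.

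Among the Aux/IAA repressor genes, IAA6 and IAA9 were higher in lf2 by the 2-fold rule and IAA1, IAA14, IAA20 and IAA24 lay between the limits. IAA6, an Aux/IAA gene that has been linked to drought tolerance and tiller outgrowth in rice, stood at 41.2 FPKM in lf2 and 4.91 in XD1B. This is a ratio of 8.39 (6.87 to 10.3) and a log2 difference of 2.84, exceeded by 1160 of all measured genes. IAA6 had rank 4 among the 30 Aux/IAA genes in lf2, against rank 17 in XD1B. IAA9 stood at 2.30 FPKM in lf2 and 0.0997 in XD1B, a ratio of 23.04 (7.54 to 115). The XD1B level of IAA9 rests on 3 fragments, against 65 in lf2, and the interval of the ratio is correspondingly wide. With a pseudocount of 5 in place of 1 the log2 difference of IAA9 was 0.52 instead of 1.58, and the gene no longer passed the 2-fold rule.

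IAA1, whose transcript is known to respond to auxin and to brassinosteroid, stood at 18.5 FPKM in lf2 and 11.96 in XD1B, a ratio of 1.54 (1.37 to 1.74). IAA24 was the Aux/IAA member with the highest level in XD1B, at 34.7 FPKM in lf2 and 27.9 in XD1B, a ratio of 1.25 (1.14 to 1.36). IAA20 stood at 2.67 FPKM in lf2 and 1.85 in XD1B, and its ratio of 1.44 had a counting interval of 0.863 to 2.44 that includes equal levels. IAA14 stood at 2.59 FPKM in lf2 and 3.83 in XD1B, a ratio of 0.675 (0.504 to 0.901). Its log2 difference of -0.43 lay close to the median of all genes, with 41.5% of them below it. IAA14, IAA20 and IAA9 were the low members of the family subset, all under 4 FPKM in both libraries.

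The GH3 members were all at higher levels in lf2, and GH3-2 had the largest log2 difference of the 10 members. GH3-2 encodes an enzyme that conjugates auxin to aspartate and has been tied to disease resistance and drought responses in rice. It stood at 66.3 FPKM in lf2 (4301 fragments) and 0.594 in XD1B (41 fragments), a ratio of 112 (82.1 to 156). Its log2 difference of 5.40 placed it at rank 221 of 22150 genes from the highest. GH3-8, an auxin-conjugating enzyme gene that acts in basal resistance and was also isolated as a floret gene downstream of MADS1 (OsMGH3 in the reference table), stood at 79.99 FPKM in lf2 and 11.5 in XD1B. The ratio was 6.94 (6.44 to 7.49) and the log2 difference 2.69. MADS1 itself was lower, at 73.2 FPKM in lf2 and 190 in XD1B. A relation between the levels of GH3-8 and MADS1 was not tested.

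GH3-1, which also encodes an auxin-conjugating enzyme, stood at 5.78 FPKM in lf2 and 2.74 in XD1B. Its ratio of 2.11 (1.78 to 2.49) exceeded 2, but its log2 difference with the pseudocount was 0.86, inside the limits. With lf2 rescaled, that difference was 1.20, and GH3-1 was the sixth member counted as higher. The 3 GH3 members lie on 2 chromosomes, with GH3-1 and GH3-2 on chromosome 1 and GH3-8 on chromosome 7.

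SAUR39, which has been described in rice as a negative regulator of auxin synthesis and transport, stood at 4.12 FPKM in lf2 and 0.167 in XD1B. The ratio of 24.7 (9.34 to 92.6) rests on 93 fragments in lf2 and 4 in XD1B. The log2 difference was 2.13, and 0.82 with a pseudocount of 5, so SAUR39 lost its place among the higher genes at that setting. It was the only SAUR gene followed, and nothing here speaks for the rest of that large family.

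The order of levels differed between the libraries. In lf2 the order from the top was GH3-8, GH3-2, IAA6, IAA24, IAA1 and GH3-1, each apart from the next by more than counting error. SAUR39, IAA20, IAA14 and IAA9 followed at 4.12 to 2.30 FPKM, and the counting intervals of each neighbouring pair overlapped. In XD1B the order was IAA24, IAA1, GH3-8, IAA6, IAA14, GH3-1, IAA20, GH3-2, SAUR39 and IAA9. There the intervals overlapped between IAA1 and GH3-8, between IAA6 and IAA14, between GH3-1 and IAA20, and between SAUR39 and IAA9. GH3-2 therefore had rank 2 in lf2 and rank 8 in XD1B, while IAA24 had rank 4 in lf2 and rank 1 in XD1B.

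**Figure D2:**
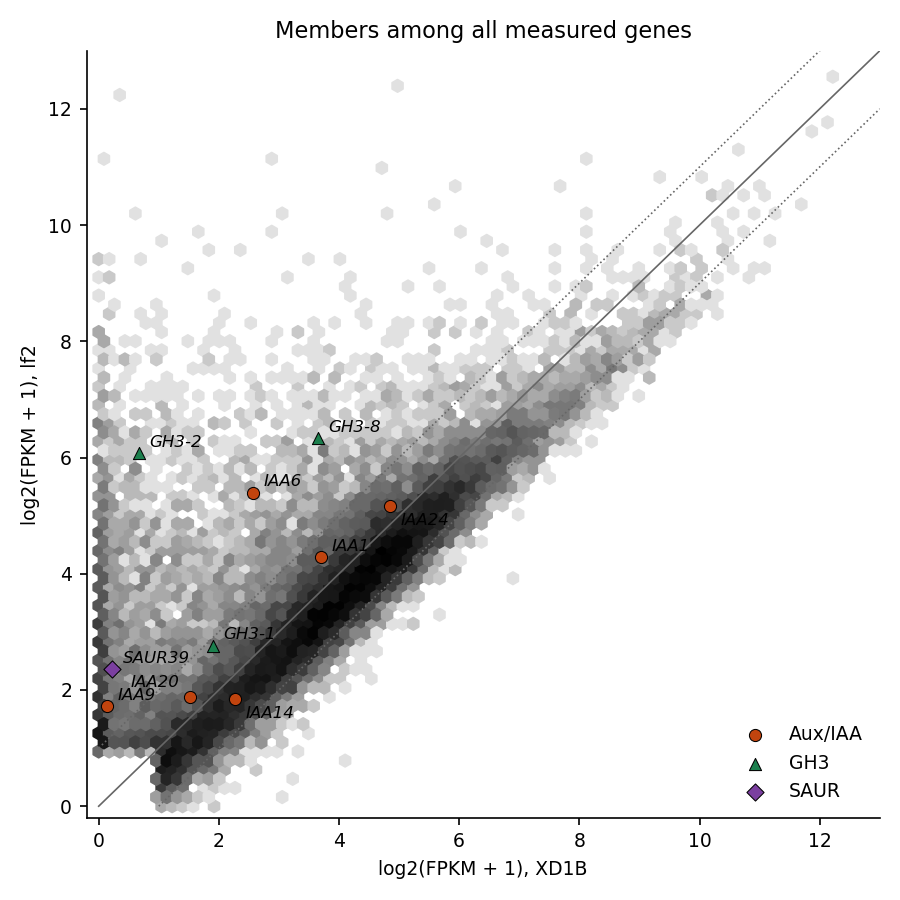
Levels as log2(FPKM + 1) in lf2 (vertical) against XD1B (horizontal), with all 22150 measured genes as grey bins and the 10 members as symbols; the solid line marks equal levels and the dotted lines a 2-fold difference. GH3-2, IAA6, GH3-8, SAUR39 and IAA9 lie above the upper dotted line and 0 members lie below the lower one.

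The further Aux/IAA genes gave another split than the members. Of 24 further Aux/IAA genes in the table, 17 reached FPKM 1, and by the 2-fold rule 1 of these was higher in lf2, 7 were lower and 9 lay between, beside 15.3% higher and 8.23% lower among all genes. Their median log2 difference was -0.87, beside -0.31 over all genes. Of the 17, 5 had a difference above 0, as did 34.8% of all genes. IAA21 stood at 49.4 FPKM in lf2 and 147 in XD1B, a ratio of 0.335 (0.318 to 0.353). IAA31 stood at 1.66 FPKM in lf2 and 5.79 in XD1B, and IAA7 at 7.34 in lf2 and 20.2 in XD1B. IAA30, the neighbour of IAA31 on chromosome 12, was lower as well, at 13.01 FPKM in lf2 and 29.96 in XD1B. IAA18, chosen after its values were seen because it is the single higher gene, stood at 16.6 FPKM in lf2 and 7.40 in XD1B. With lf2 rescaled as above, 2 of the further Aux/IAA genes were lower by the rule, beside 1.73% of all genes, and their median was -0.58, beside 0.05 over all genes.

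Summed over the family, Aux/IAA transcripts were less abundant in lf2. The summed level of the 30 Aux/IAA genes was 521 FPKM in lf2 and 870 in XD1B, and the 6 members supplied 19.6% of it in lf2 and 5.80% in XD1B. IAA17, named after its values were seen as the most abundant Aux/IAA gene in both libraries, stood at 132 FPKM in lf2 and 264 in XD1B. IAA6 alone made up 7.90% of the Aux/IAA total in lf2 and 0.564% in XD1B. IAA28 and IAA29 stood at 0 in both libraries.

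Further GH3 genes went both ways. Of these 10 genes 7 reached FPKM 1. Of the 7, 4 had a log2 difference above 0 and 3 below it, while 34.8% of all genes were above 0. Their median log2 difference was 0.70, beside -0.31 over all genes. By the 2-fold rule 2 were higher in lf2 and 0 lower, beside 15.3% and 8.23% of all genes. Over the 6 whose symbols are in the reference table the median was 0.02, with 1 higher. With lf2 rescaled, the median of the 7 was 1.06, beside 0.05 over all genes, and 4 were higher, beside 19.6% of all genes. GH3-4 stood at 43.8 FPKM in lf2 and 14.1 in XD1B, a ratio of 3.11 (2.90 to 3.35). The other gene higher by the rule was GH3-3, named after its values were seen. It stood at 21.1 FPKM in lf2 and 7.13 in XD1B, a ratio of 2.97 (2.68 to 3.30). The symbol GH3-3 is not in the reference table on the same chromosome and in order. GH3-5 was named after its values were seen because it is JAR1, an enzyme that makes active jasmonate-isoleucine. GH3-5 stood at 13.2 FPKM in lf2 and 7.77 in XD1B, within the 2-fold limits. The summed GH3 level was 267 FPKM in lf2 and 103 in XD1B. GH3-1, GH3-2 and GH3-8 supplied 56.9% of that sum in lf2 and 14.4% in XD1B, and GH3-2 alone 24.8% in lf2 and 0.575% in XD1B. GH3-11, the most abundant GH3 gene in XD1B and also named after its values were seen, stood at 18.8 FPKM in lf2 and 30.2 in XD1B.

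**Figure D3:**
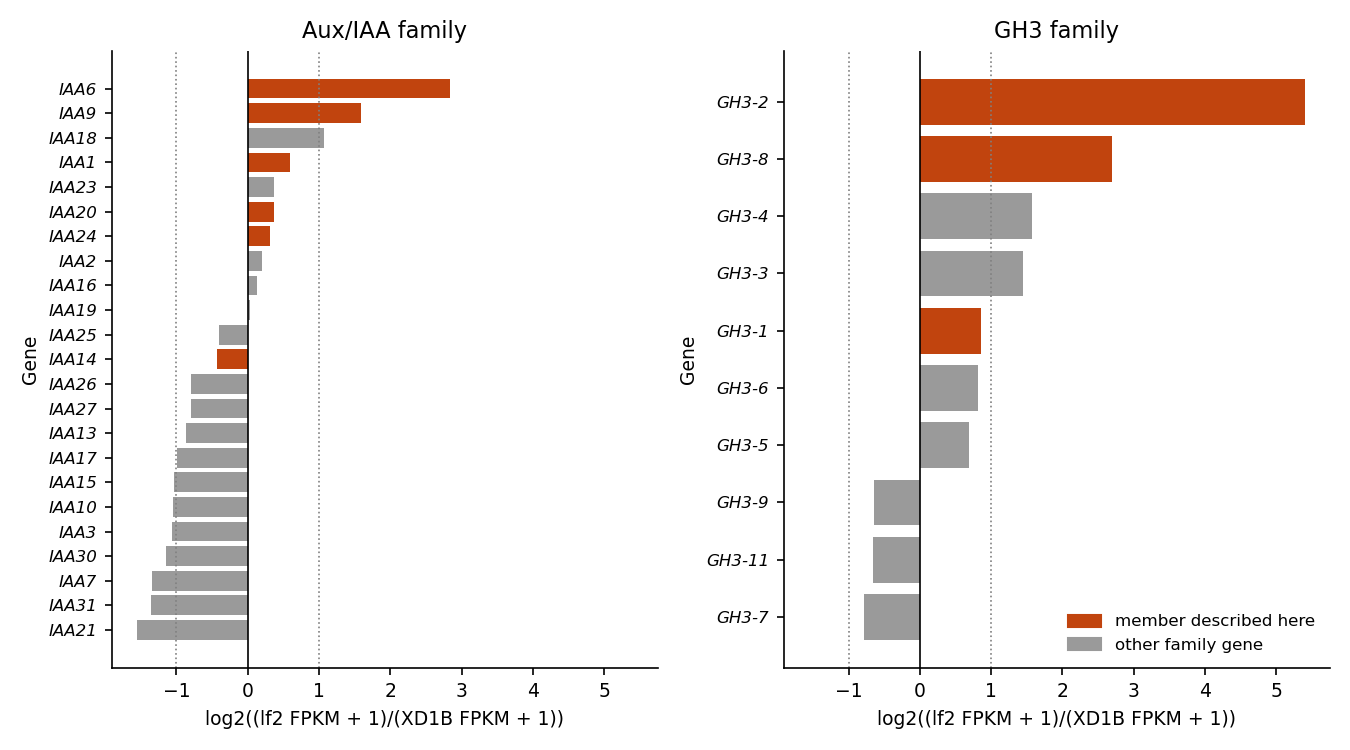
Log2 difference of every measured Aux/IAA gene (left, 23 genes) and GH3 gene (right, 10 genes), with members in colour and other family genes in grey; dotted lines mark the 2-fold limits. In the Aux/IAA family 3 genes pass the upper limit and 7 the lower one, and in the GH3 family 4 pass the upper limit and 0 the lower one.

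Among the receptors, ARF genes and genes of auxin supply, 0 passed the 2-fold rule as higher in lf2 at the deposited scale. The receptor pair TIR1 and AFB2 had a summed level of 227 FPKM in lf2 and 215 in XD1B, with 0 of 2 past the 2-fold rule. Among 23 measured ARF genes the rule counted 0 as higher and 2 (8.70%) as lower, beside 15.3% and 8.23% of all genes, and their median log2 difference was -0.60, beside -0.31. The share of ARF genes that were lower is thus near that of all genes. ARF23 stood at 140 FPKM in lf2 and 308 in XD1B, a ratio of 0.454 (0.445 to 0.464), and ARF8 at 23.7 in lf2 and 50.5 in XD1B. Among 15 measured genes of auxin synthesis, breakdown and transport the rule counted 0 as higher and 3 (20%) as lower, beside 15.3% and 8.23% of all genes, again with a median of -0.60. None of these 3 has its symbol in the reference table on the same chromosome and in order, and over the 6 genes that do, 0 were lower and the median was -0.34. With lf2 rescaled, both lists held 1 higher and 0 lower gene, beside 19.6% higher and 1.73% lower among all genes. The median was then -0.22 for the ARF genes and -0.23 for the genes of synthesis, breakdown and transport, beside 0.05 over all genes.

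**Figure D4:**
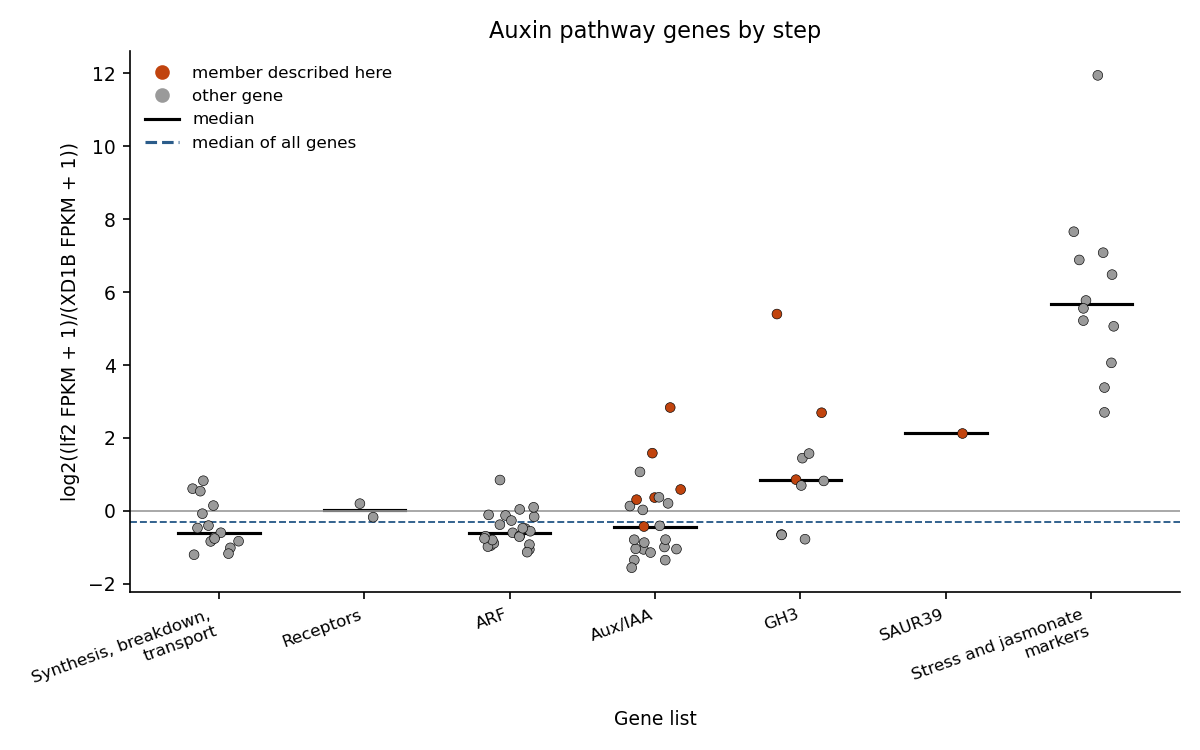
Log2 difference of measured genes by step of the auxin pathway and of the stress and jasmonate markers; coloured points are members, grey points other genes, black bars the median of each list and the dashed line the median of all genes at -0.31. ARF genes have a median of -0.60, whereas GH3-2 stands at 5.40 and the stress and jasmonate markers at a median of 5.66.

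The stress and jasmonate markers were also higher in lf2, on a list chosen with earlier results of these data known. All 12 markers passed the 2-fold rule as higher in lf2, beside 15.3% of all genes, with log2 differences of 2.70 to 11.9 and a median of 5.66. Only 6 of the 12 reached FPKM 1 in XD1B, so the others passed the filter by their lf2 level alone. Given this and how the list was chosen, the count describes the 12 genes and is no test. SALT, which encodes a lectin and responds to salt and drought, stood at 5129 FPKM in lf2 and 0.299 in XD1B. TIFY11C, a JAZ-type repressor gene of jasmonate signalling, stood at 217 FPKM in lf2 and 0.0777 in XD1B, from 3 fragments in XD1B. The symbol was given to LOC_Os03g08320 from its place among neighbouring TIFY11 genes on chromosome 3, so these values could belong to a neighbour of the same type. NAC6 encodes a transcription factor of stress responses and stood at 271 FPKM in lf2 and 1.01 in XD1B. The part of this state of the lf2 library, or of the root markers PT8 and LSI1 that were also higher in it, in the higher levels of GH3-2, GH3-8, IAA6, IAA9 and SAUR39 was not tested.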

How the data were processed

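RNA of young panicles was sequenced on the Illumina platform per the labels' protocols, with 1 library each of lf2 and XD1B. The authors deposited FPKM per gene in 1 column per library, a unit stated by the name of the deposited table. Aligner, counting tool, genome build and annotation: not given in the sources used here. Whole fragment numbers were recovered from the FPKM values, as the library totals and gene lengths that make them whole within 0.0002 fragments plus 3e-07 of the number. They were found for 100% of 1500 genes drawn, and for 21.7% with wrong totals. They are lower bounds, since a common factor of both libraries cannot be seen. Intervals are exact 95% Clopper-Pearson (ratios) and Poisson (levels) intervals and cover counting error only.

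Symbols were paired with loci by hand and compared with a RefSeq gene table of another assembly by chromosome and order, which held all 10 members. Members and lists were chosen with earlier results of these data known. Named were all members, up to 4 genes per auxin list and 3 markers with the largest difference past the 2-fold rule and in that table. The count of members past the rule was the comparison made, with other pseudocounts, filters and scalings as alternatives. On simulated data for lf2 against XD1B with 22150 genes, 94% of 200 genes with a 3-fold difference passed the 2-fold rule. The simulated data held counting error only, without variation between panicles or a different composition of the libraries. Sequences were not used here. Python 3.11.15, numpy 2.4.6, pandas 2.3.3 and scipy 1.17.1 were used.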

Additional observations from a re-analysis of the deposited data

How the results depend on the processing

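No paired analysis was possible because lf2 and XD1B have 1 library each. For the same reason leaving out a replicate was not possible. All alternatives were planned, and 0 members changed sign under any of them. The number of members at least 2-fold higher was 3 of 10 with a pseudocount of 5, beside 9.86% of 22150 genes, and 3 of 6 at FPKM of at least 5 in either library, beside 15.2% of 16985 genes. With the pseudocount of 5 the low genes IAA9 and SAUR39 fell inside the 2-fold limits. The filter at FPKM 5 left out IAA9, IAA14, IAA20 and SAUR39. The members' median log2 difference was 1.916 and 0.497 with pseudocounts of 0.1 and 5, 1.775 at FPKM of at least 5, 1.536 with lf2 rescaled to a median ratio of 1, and 1.475 with both libraries rescaled to a sum of 1000000. Among all genes, 2978 were at least 2-fold lower with a pseudocount of 0.1, 648 with 5 and 389 at a median ratio of 1, 2183 were higher with a pseudocount of 5, and the median was -0.189 with a pseudocount of 5, 0 without a filter and 0.051 at a median ratio of 1. The median of the further Aux/IAA genes was -0.995 and -0.696 with pseudocounts of 0.1 and 5, -0.442 without a filter, -1.015 at FPKM of at least 5 and -0.578 at a median ratio of 1. With a pseudocount of 5, 3 of 17 of them were lower, beside 648 of 22150 genes. After rescaling to a sum of 1000000, 4 of 18 were lower, beside 1787 genes in all. That of the further GH3 genes was 0.248 with a pseudocount of 5, -0.0081 without a filter, 0.024 at FPKM of at least 5 and with symbols in the reference table only, and 1.057 at a median ratio of 1. The ARF median was -0.225 at a median ratio of 1. The synthesis, breakdown and transport median was -0.403 with a pseudocount of 5, -0.119 without a filter, -0.225 at a median ratio of 1 and -0.338 with symbols in the reference table only. Depth limits IAA9 and SAUR39, with 3 and 4 fragments in XD1B.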
